A study of Mus musculus with 6 samples.

Results

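Nuclear receptors are transcription factors that carry a zinc-finger DNA-binding domain and a pocket for a lipid-soluble ligand, and 34 mouse genes of this family, chosen by name, were followed through liver RNA sequencing. All 34 were found among the 35540 gene symbols of the table. The mice carried *Surf4* fl/fl alleles, in which exon 2 of *Surf4* (a cargo receptor of the endoplasmic reticulum) is flanked by loxP sites, on a C57BL/6J background. Cre recombinase under the albumin promoter, which is active in hepatocytes, was present in the 3 mice of the *Surf4* fl/fl Alb-Cre+ group and absent from the 3 of the *Surf4* fl/fl Alb-Cre- group, the controls, which therefore also carried the floxed alleles. Mouse 2 of each genotype was female, mice 1 and 3 were male, and ages were not given for these mice. The methods fasted mice overnight before tissue was collected. No other treatment or time point was compared, and in whole liver fewer cells of a type cannot be told apart from less RNA per cell.

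Most of these receptors bind DNA as pairs, often with an RXR protein as partner, at repeats of the half-site AGGTCA, and recruit coactivators or corepressors according to the ligand they hold. In the liver, HNF4A maintains hepatocyte identity, LXR proteins (*Nr1h3*, *Nr1h2*) sense oxysterols, FXR (*Nr1h4*) senses bile acids, and CAR (*Nr1i3*) and PXR (*Nr1i2*) sense foreign compounds. Thyroid hormone, retinoid and glucocorticoid receptors carry hormone signals, ROR proteins belong to the circadian clock, and NR4A genes are induced within minutes of a stimulus.

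*Hnf4a*, the most abundant of the 34, has alternative starts, of which the downstream one gives the adult liver forms. Both are printed because the deposited transcripts separate them, with those of *Pparg*, whose starts give its gamma 1 and gamma 2 forms, and of *Nr1h4*, the only tested member without overlap between genotypes. Each sequence is 300 bases, 250 before and 50 after a RefSeq start on GRCm38.p6, written 5′ to 3′ on the gene's strand, and capitals mark AGGTCA or its complement TGACCT.
*Hnf4a* downstream start, chr2:163546905-163547204, plus strand: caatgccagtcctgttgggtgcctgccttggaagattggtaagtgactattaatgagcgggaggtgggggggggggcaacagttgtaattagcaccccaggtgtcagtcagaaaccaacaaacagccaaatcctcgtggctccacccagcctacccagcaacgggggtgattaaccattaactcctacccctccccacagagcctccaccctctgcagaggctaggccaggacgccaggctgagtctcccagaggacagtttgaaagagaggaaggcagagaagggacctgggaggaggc
*Hnf4a* upstream start, chr2:163506607-163506906, plus strand: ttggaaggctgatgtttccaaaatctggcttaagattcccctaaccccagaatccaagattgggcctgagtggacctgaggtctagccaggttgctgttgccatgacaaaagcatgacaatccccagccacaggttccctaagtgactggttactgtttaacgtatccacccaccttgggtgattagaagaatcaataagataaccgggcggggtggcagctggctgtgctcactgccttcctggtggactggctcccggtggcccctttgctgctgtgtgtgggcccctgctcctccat
*Pparg* upstream start, chr6:115360894-115361193, plus strand: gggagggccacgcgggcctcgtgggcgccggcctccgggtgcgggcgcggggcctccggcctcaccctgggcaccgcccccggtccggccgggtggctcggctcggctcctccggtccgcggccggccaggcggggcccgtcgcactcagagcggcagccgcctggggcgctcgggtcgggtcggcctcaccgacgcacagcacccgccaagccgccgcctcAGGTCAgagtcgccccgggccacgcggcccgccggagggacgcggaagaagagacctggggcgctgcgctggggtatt
*Pparg* downstream start, chr6:115421816-115422115, plus strand: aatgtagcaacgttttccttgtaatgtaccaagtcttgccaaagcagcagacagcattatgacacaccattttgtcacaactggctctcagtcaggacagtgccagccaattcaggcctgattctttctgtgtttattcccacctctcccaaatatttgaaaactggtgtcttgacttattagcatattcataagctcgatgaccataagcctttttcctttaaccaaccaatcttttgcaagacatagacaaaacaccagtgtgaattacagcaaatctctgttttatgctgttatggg
*Nr1h4* start, chr10:89506609-89506908, minus strand: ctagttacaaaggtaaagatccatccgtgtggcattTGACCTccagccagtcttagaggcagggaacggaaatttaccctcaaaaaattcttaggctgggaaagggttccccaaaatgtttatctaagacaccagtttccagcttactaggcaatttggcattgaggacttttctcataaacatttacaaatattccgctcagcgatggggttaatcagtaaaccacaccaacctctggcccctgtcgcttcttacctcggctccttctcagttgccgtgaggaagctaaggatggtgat

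The half-site lies in the upstream *Pparg* and the *Nr1h4* windows and in neither of the *Hnf4a* windows. Among the 50 RefSeq promoters found for 31 members, 10 (20%) held AGGTCA on either strand, in 9 genes, against 5340 (16.3%) of 32851 promoters of the same length. Such a match is a description of the letters and does not show binding.

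Values were TPM, the share of each transcript among all transcripts after correction for its length, scaled to a total of 1000000 in each mouse and added up by gene symbol. Since TPM do not hold read counts, sequencing depth is unknown, and between 10059 and 11125 genes reached 1 TPM. *Surf4* was 92.5, 94.5 and 92.5 TPM in Alb-Cre- mice 1, 2 and 3 and 59.0, 71.8 and 54.3 TPM in Alb-Cre+ mice 1, 2 and 3, lower in every Alb-Cre+ mouse (exact permutation test, two-sided, p = 0.1, the smallest that 3 against 3 allows). This total includes the exons outside the deleted part. The 7 hepatocyte markers found (*Alb*, *Apoa1*, *Ttr*, *Apob*, *Serpina1a*, *Cps1* and *Fgb*) summed to 77182 to 88268 TPM in controls and 57869 to 78516 TPM in Alb-Cre+ mice. The females stood apart from the males in the sums of other cell types: 8 Kupffer cell markers summed to 580 and 633 TPM in females and 168 to 250 TPM in males, 10 stellate cell markers to 359.5 to 380.1 and 147 to 292 TPM, 8 sinusoidal endothelial markers to 201 to 220 and 94.1 to 168 TPM, and 8 lymphocyte markers to 12.0 to 12.8 and 4.27 to 7.34 TPM. Each Kupffer cell marker was higher in both females than in any male. In the other lists single markers overlapped, among them *Lrat* and *Col1a1* (stellate), *Kdr* and *Gpr182* (endothelial) and *Cd79a* and *Ms4a1* (lymphocyte). Of all genes, 36.6% were higher in females without overlap. Red blood cell marker sums went the other way (103 to 131 TPM in females, 172 to 408 TPM in males), cholangiocyte sums overlapped, and the cholangiocyte marker *Cftr* was below 0.1 TPM in every mouse.

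Expression of the 34 genes spanned more than 3 orders of magnitude. The highest 5 had a mean above 50 TPM (*Hnf4a*, *Rxra*, *Nr1h4*, *Nr1i3* and *Nr1h3*), 8 lay between 10 and 50 TPM, 16 between 1 and 10 TPM, and *Nr4a2* and *Nr2f1* between 0.1 and 1 TPM. *Hnf4g*, *Nr4a3* and *Vdr* had means of 0.0984, 0.0879 and 0.0440 TPM, under the minimum of 0.1 TPM for testing, which left 31 members among 14189 genes. The spread between control mice also varied: the coefficient of variation was 2.1% for *Thrb*, 4.21% for *Rxrb* and 4.42% for *Nr1h3*, but 79.4% for *Pparg* and 106% for *Nr4a2*.

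**Figure D1:**
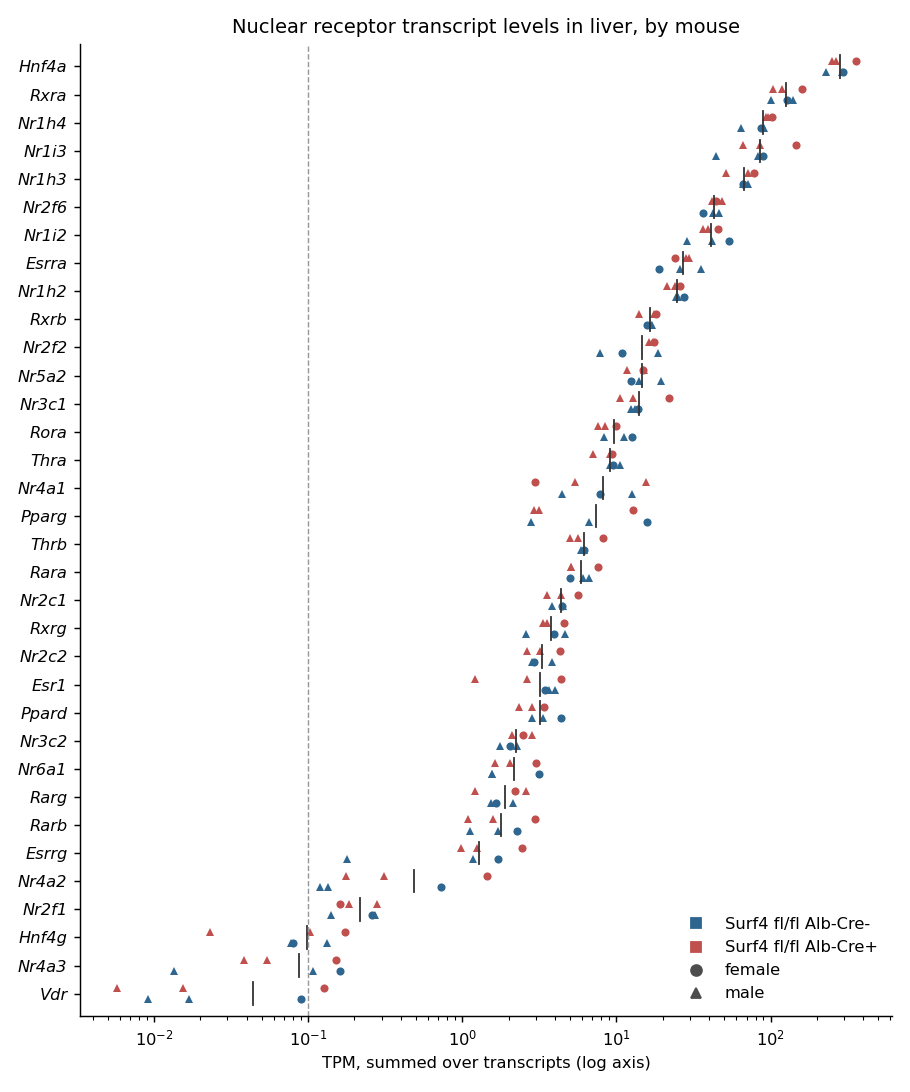
TPM of the 34 nuclear receptor genes in each of 6 mice on a log axis, ordered by mean (black bar); colours give genotype, circles are females and triangles males, and the dashed line is the 0.1 TPM minimum. *Hnf4a* leads at 230.4 to 356.1 TPM, and the 3 genes at the bottom have means under 0.1 TPM.

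The first question was whether loss of hepatocyte *Surf4* changed the expression of these receptors. None of the 31 tested members had an adjusted p under 0.01 (limma, Benjamini-Hochberg over all genes), and neither did any other gene (0% of 14189). The paper's DESeq2 comparison of these livers, also at a false discovery rate of 0.01, reports a limited set of up- and downregulated transcripts. The 0% therefore belongs to this fit to TPM and does not show that no transcript changed. At an unadjusted p under 0.05, limma called 0 members against 1.76% of all genes. Genotype was the only term, so differences between females and males stayed in the spread of this fit. With the replicate number as a block, given below, the share of all genes was 4.69%. The adjusted p of every member was 0.9999 by limma, and so was that of *Surf4* itself (-0.60 ± 0.13 log2, SE). This fit thus did not call the deleted gene, and a member that was not called is not shown to be unchanged. Of the members, 19 were above 0 and 12 below on the log2(TPM + 0.1) scale (Alb-Cre+ minus Alb-Cre-), with a median of 0.06 beside -0.0017 over all genes. Standard errors ran from 0.13 to 0.79 log2 units. For 22 members the 95% interval lay within 1 log2 unit of 0, and for *Nr2f6*, *Rxrb*, *Nr1h2* and *Nr1h3* within 0.5.

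**Figure D2:**
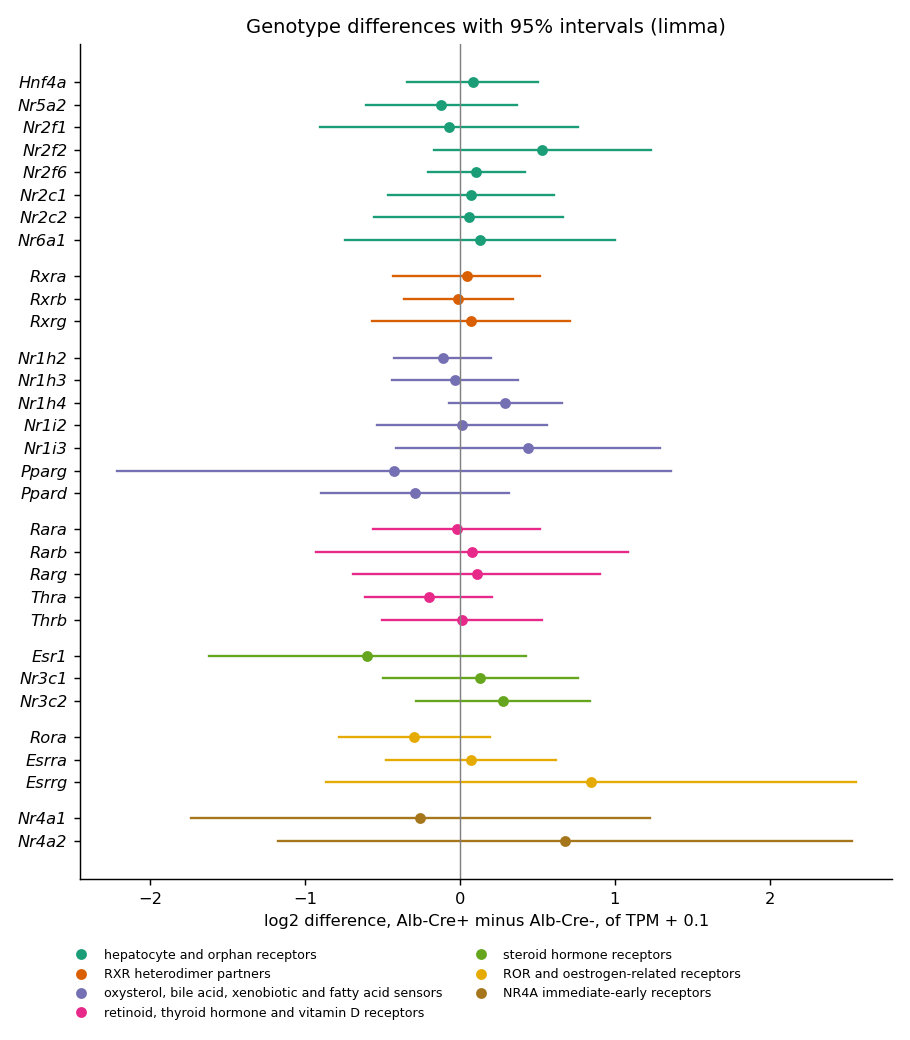
Genotype difference (Alb-Cre+ minus Alb-Cre-, log2 of TPM + 0.1) of the 31 tested members with 95% intervals from limma, n = 3 mice per genotype, coloured by role. Every interval includes 0, and those of *Pparg*, *Esrrg* and *Nr4a2* are the widest.

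Among the hepatocyte and orphan receptors, *Hnf4a* was 230.4, 297 and 293 TPM in Alb-Cre- mice 1 to 3 and 251, 356 and 265 TPM in Alb-Cre+ mice 1 to 3. The groups overlapped, with the highest value in the Alb-Cre+ female (difference 0.08 ± 0.18 log2, SE). *Nr2f2*, which encodes the regulator COUP-TFII, was 18.7, 10.9 and 7.89 TPM in controls and 17.2, 17.4 and 16.4 TPM in Alb-Cre+ mice, a difference of 0.53 ± 0.30 log2 (95% interval -0.17 to 1.23). The 3 Alb-Cre+ values lay close together while control mouse 1 exceeded all of them. Values of *Nr2f6* (EAR2) were 46.0, 36.6 and 42.3 TPM in controls and 48.3, 44.1 and 41.8 TPM in Alb-Cre+ mice, again overlapping. *Nr5a2* (LRH-1), a regulator of bile acid synthesis genes, was 19.4, 12.4 and 14.0 TPM against 15.0, 14.8 and 11.8 TPM. The orphan receptors *Nr2c1* (mean 4.39 TPM, range 3.56 to 5.64), *Nr2c2* (3.27 TPM, 2.62 to 4.28) and *Nr2f1* (0.217 TPM, 0.141 to 0.278) were lower. Of the annotated exon bases of *Nr2f6* and *Nr2c2*, 54.4% and 31.2% overlap other genes on the opposite strand (*Ocel1*, and mainly *Mrps25*), which makes their values uncertain. *Nr6a1* (GCNF) is given with the sex comparison.

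RXR proteins are the shared partners of many other receptors here. *Rxra*, the main liver form, was 139.9, 128 and 100.3 TPM in controls and 119.3, 160 and 104 TPM in Alb-Cre+ mice, so both groups covered nearly the same range (0.04 ± 0.20 log2). *Rxrb* was 17.0, 15.7 and 16.7 TPM against 17.5, 18.0 and 13.9 TPM. *Rxrg* averaged 3.77 TPM (2.60 to 4.62). The order *Rxra*, *Rxrb*, *Rxrg* held in each of the 6 mice without overlap.

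*Nr1h4* was the sole tested member whose genotypes did not overlap. It was 90.1, 86.6 and 64.5 TPM in controls (80.4 ± 13.9, SD, n = 3) and 94.2, 103 and 96.1 TPM in Alb-Cre+ mice (97.7 ± 4.53, SD, n = 3). All 3 Alb-Cre+ values were above the highest control, by little for mouse 1, and the difference was 0.29 ± 0.15 log2 (95% interval -0.07 to 0.66). One of 31 members was thus non-overlapping and higher, against 2.18% of all genes, and 0 were non-overlapping and lower, against 2.71%.

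The other lipid and xenobiotic sensors overlapped between genotypes. *Nr1h3* (LXR alpha) was 71.3, 66.0 and 66.2 TPM in controls and 71.9, 78.6 and 51.7 TPM in Alb-Cre+ mice, and *Nr1h2* (LXR beta) was 24.9, 27.5 and 24.4 TPM against 24.1, 26.0 and 21.2 TPM. For both LXR genes the interval of the difference stayed within 0.5 log2 units. *Nr1i2* was 28.7, 53.7 and 41.7 TPM in controls and 39.4, 45.9 and 36.7 TPM in Alb-Cre+ mice. *Ppard*, a fatty acid sensor, averaged 3.19 TPM (2.32 to 4.40).

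CAR expression had the largest spread between control mice among the 5 members above 50 TPM (coefficient of variation 33.4%). *Nr1i3* was 83.3, 88.8 and 44.6 TPM in controls and 86.1, 145 and 66.0 TPM in Alb-Cre+ mice, and each Alb-Cre+ value exceeded the control of the same number. Of the 31 members, 4 were higher in this way (*Nr1h4*, *Nr1i3*, *Esrrg* and *Nr4a2*), against 11.5% of all genes. Another 4 were lower (*Nr1h2*, *Ppard*, *Thra* and *Rora*), against 12.4%, so neither share stood out. The difference was 0.44 ± 0.36 log2 (95% interval -0.41 to 1.29). With the replicate number as a block it was 0.44 ± 0.15 log2, with an unadjusted p under 0.05 and an adjusted p = 0.997 by limma.

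*Nr1i3* shares 74.8% of its annotated exon bases with *Tomm40l* on the opposite strand, and whether reads were assigned by strand is not given in the sources used here. *Tomm40l*, a mitochondrial import gene, was 6.95, 3.81 and 18.8 TPM in controls and 6.37, 3.79 and 5.91 TPM in Alb-Cre+ mice, highest in the control where *Nr1i3* was lowest and lowest in both females. The split between these genes is uncertain.

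Hormone receptors were mostly low and overlapped between genotypes. *Nr3c1*, the glucocorticoid receptor, was 13.2, 13.7 and 12.4 TPM in controls and 12.8, 21.9 and 10.6 TPM in Alb-Cre+ mice, with the female Alb-Cre+ mouse above the rest. *Nr3c2*, the mineralocorticoid receptor, averaged 2.25 TPM (1.75 to 2.83). *Esr1*, the oestrogen receptor alpha, averaged 3.70 ± 0.26 TPM in controls and 2.73 ± 1.58 TPM in Alb-Cre+ mice (SD, n = 3), with 1.20 TPM in Alb-Cre+ mouse 3 (difference -0.60 ± 0.43 log2, 95% interval -1.62 to 0.43). *Thra* (mean 9.12 TPM, 7.05 to 10.5), *Thrb* (6.17 TPM, 5.01 to 8.14), *Rara* (5.91 TPM, 5.01 to 7.57) and *Rarg* (1.89 TPM, 1.20 to 2.59) also overlapped.

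*Rora* averaged 9.71 TPM (7.58 to 12.6), with a difference of -0.29 ± 0.21 log2 (95% interval -0.78 to 0.20) and a lower value in each Alb-Cre+ mouse than in the control of its number, as in 12.4% of all genes. *Esrra*, a regulator of mitochondrial genes, was 25.9, 19.0 and 35.4 TPM in controls and 29.4, 24.2 and 28.4 TPM in Alb-Cre+ mice. *Esrrg* averaged 1.29 TPM and had the largest difference of any member, 0.85 ± 0.72 log2, with an interval of -0.86 to 2.55. It was 0.178 TPM in Alb-Cre- mouse 3 and 0.979 to 2.45 TPM in the other mice, among them both other controls. *Nr4a1* ranged from 2.99 to 15.7 TPM, both extremes being Alb-Cre+ mice.

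Blocking by replicate number gave 666 genes with an unadjusted p under 0.05 (4.69%), against 250 without it, and 2 of 31 members, *Nr1i3* and *Nr4a2*, both higher (2.28% of all genes were). No member or other gene had an adjusted p under 0.01 with the block, the smallest being 0.058 over all genes and 0.997 among the members. Over the protein-coding transcripts alone neither gene had an unadjusted p under 0.05 with the block, and of the 31 members *Esrrg* alone had one (0.92 log2, adjusted p = 0.9998 by limma). The coding transcripts of *Esrrg* gave 0.178 TPM in Alb-Cre- mouse 3 and 0.916 to 2.38 TPM in the other mice.

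Single mice decided the balance of directions. Without the Alb-Cre+ female, 10 of 31 members were above 0 and their median was -0.10 log2, and *Esr1* had an unadjusted p under 0.05. The only female in that fit was a control and sex was not a term, so genotype was partly mixed with sex. With all mice, the median of all genes was 0.26 log2 higher in females, and the part of this shift in the change was not tested. Without Alb-Cre- mouse 1, 11 members changed sign and *Nr2f2* had an unadjusted p under 0.05. *Nr1h4* stayed above 0 whichever mouse was left out (0.14 to 0.38 log2).

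Individual transcripts were compared for the 3 members with the smallest genotype p. *Nr1h4* transcripts from the printed start made up 74.9% to 84.1% of its TPM. The coding transcript *Nr1h4*-203, which begins farther upstream, contributed 20.3, 15.5 and 16.2 TPM in controls and 19.6, 16.3 and 17.3 TPM in Alb-Cre+ mice, while *Nr1h4*-202 contributed 10.9, 6.09 and 6.38 TPM against 13.1, 13.6 and 13.8 TPM. The latter did not overlap and the former did. For *Nr2f2*, retained-intron transcripts held 1.9% of the TPM in Alb-Cre- mouse 3 and 21.6% to 30.9% in the other 5 mice. The leading *Rora*-201 was 4.65, 8.37 and 7.71 TPM in controls and 4.61, 5.95 and 5.78 TPM in Alb-Cre+ mice, overlapping through control mouse 1. From the downstream *Hnf4a* start came 99.3% to 99.7% of *Hnf4a* TPM, and from its upstream start 0% to 0.26%, in both genotypes.

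A second comparison set the 2 females against the 4 males with genotype in the fit, although sex cannot be told apart from replicate number 2. Livers had the sex pattern of their labels: all 11 tested female-biased genes were higher in females and all 10 male-biased genes lower, for example *Sult2a1* (1119 and 1005 TPM in females, 0 to 0.228 TPM in males) and *Slco1a1* (0.386 and 1.00 TPM in females, 30.2 to 83.6 TPM in males). The median of all genes was 0.26 log2 higher in females with TPM as deposited and -0.01 after scaling by median of ratios, so member differences are read against this shift. No member had an adjusted p under 0.01 (0.514% of all genes had), and 2 had one under 0.05 (7.18% of all genes). In females 7 members were higher at an unadjusted p under 0.05, a share of 22.6% against 25.6% of all genes, and 1 was lower, against 3.11%. After median-of-ratios scaling 4 were higher (*Nr6a1*, *Pparg*, *Rarb* and *Nr4a2*; 13.2% of all genes) and 3 lower (*Esrra*, *Nr2f6* and *Nr5a2*; 14.3%). In deposited TPM 12 members were higher without overlap (38.7%, against 36.6% of all genes) and 1 was lower (5.00% of all genes). Each of these shares lay near or under that of all genes.

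*Pparg*, a regulator of lipid storage, was 15.8 and 12.9 TPM in the females and 6.62, 2.79, 2.91 and 3.15 TPM in the males, of which the first was Alb-Cre- mouse 1. The female values were both above the highest male (1.95 ± 0.33 log2, adjusted p = 0.0241 by limma). After median-of-ratios scaling the difference was 1.67 ± 0.31 log2, and over coding transcripts 1.94 log2. Both printed starts had higher values in females: the upstream start gave 9.07 and 10.1 TPM in females and 2.59 to 5.69 TPM in males, and the downstream start 6.32 and 2.18 TPM in females and 0 to 0.937 TPM in males. The downstream share was largest in the Alb-Cre- female, at 40%, and 0% in 2 males.

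*Rarb*, a retinoic acid receptor that is itself induced by retinoic acid, was 2.26 and 2.96 TPM in females and 1.70, 1.12, 1.58 and 1.09 TPM in males, without overlap (0.89 ± 0.28 log2, adjusted p = 0.102 by limma). After scaling the difference was 0.62 ± 0.22 log2 (adjusted p = 0.136). *Rarb* shares 38.4% of its exon bases with other genes on the opposite strand, mainly *Top2b*, which was 5.40 to 8.98 TPM. *Esrra* was 19.0 and 24.2 TPM in females and 25.9 to 35.4 TPM in males, lower in both females (-0.47 ± 0.17 log2 as deposited, -0.75 ± 0.17 after scaling, adjusted p = 0.0531 by limma). Over its coding transcripts the difference was -0.58 log2, with 14.17 and 11.57 TPM in females and 14.26 to 25.28 TPM in males. That sum leaves out 1 transcript absent from the GENCODE M21 annotation, which held 22.0% to 46.1% of *Esrra* TPM by mouse.

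*Nr1i2* was 53.7 and 45.9 TPM in females and 28.7 to 41.7 TPM in males (0.45 ± 0.18 log2), and *Nr3c1* was 13.7 and 21.9 TPM in females and 10.6 to 13.2 TPM in males (0.50 ± 0.21 log2). After scaling these were 0.16 and 0.22 log2, neither with an unadjusted p under 0.05, and the difference of *Nr1i3* went from 0.75 to 0.46 log2, also without one.

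**Figure D3:**
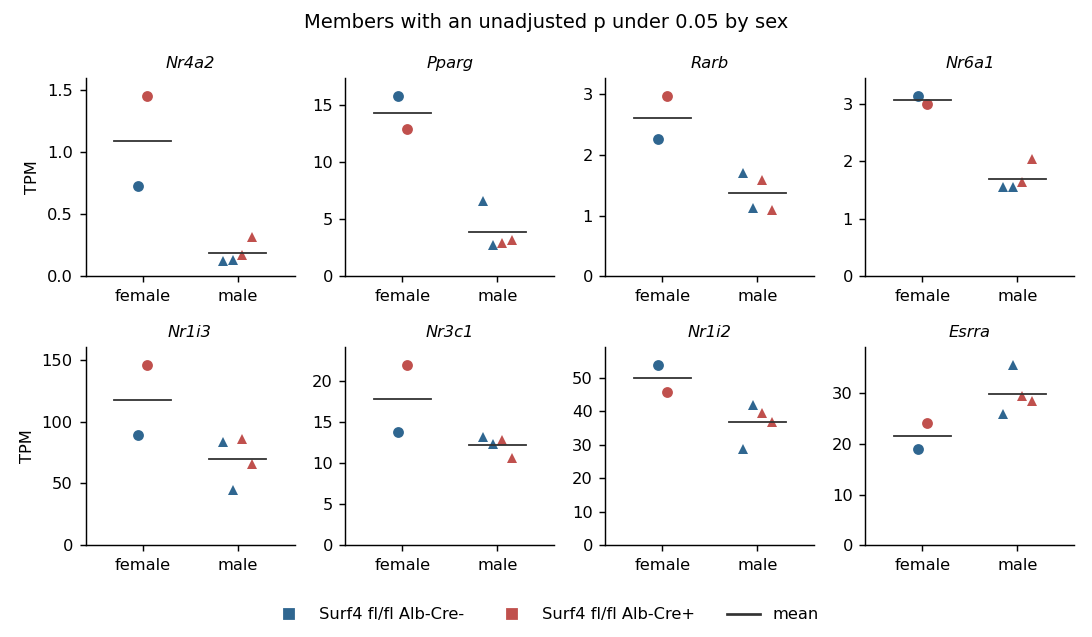
TPM in 2 females and 4 males of the 8 members with an unadjusted p under 0.05 by sex (limma, TPM as deposited); blue is Alb-Cre-, red Alb-Cre+, and bars are means. *Esrra* is lower in females and the other 7 are higher, without overlap in each panel.

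The transcripts behind the female values differed by member. *Nr4a2* was 0.729 and 1.45 TPM in females and 0.120, 0.135, 0.176 and 0.313 TPM in males (2.03 ± 0.31 log2, adjusted p = 0.0193 by limma). A single non-coding processed transcript, *Nr4a2*-204, gave 0.320 and 1.14 TPM in the females and was listed at 0 in all 4 males, while the coding transcripts gave 0.311 and 0.304 TPM in females and 0.107 to 0.198 TPM in males. Over coding transcripts the difference was 0.73 log2 (adjusted p = 0.135). For *Nr6a1*, an orphan receptor of germ cells and embryos, the sum was 3.13 and 3.00 TPM in females and 1.55, 1.56, 1.63 and 2.05 TPM in males (0.83 ± 0.21 log2). Coding transcripts gave 1.19 and 1.02 TPM in females and 0.874 to 1.36 TPM in males, a difference of 0.05 log2, and non-coding transcripts outside the retained-intron class 1.93 and 1.94 TPM in females and 0.461 to 0.735 TPM in males. In *Nr1i3* retained-intron transcripts gave 15.7 and 38.5 TPM in females and 3.36 to 13.1 TPM in males, and the leading coding transcript *Nr1i3*-201 gave 36.9 and 34.9 TPM in females and 25.5 to 39.5 TPM in males. Retained-intron transcripts of all genes made up 1.07% to 1.61% of TPM, with the highest share in the Alb-Cre+ female. Over coding transcripts 5 members were higher at an unadjusted p under 0.05 (25.2% of all genes) and 1 lower (3.38%). The cell type marker sums given above moved with sex too, and their part in these differences was not tested.

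**Figure D4:**
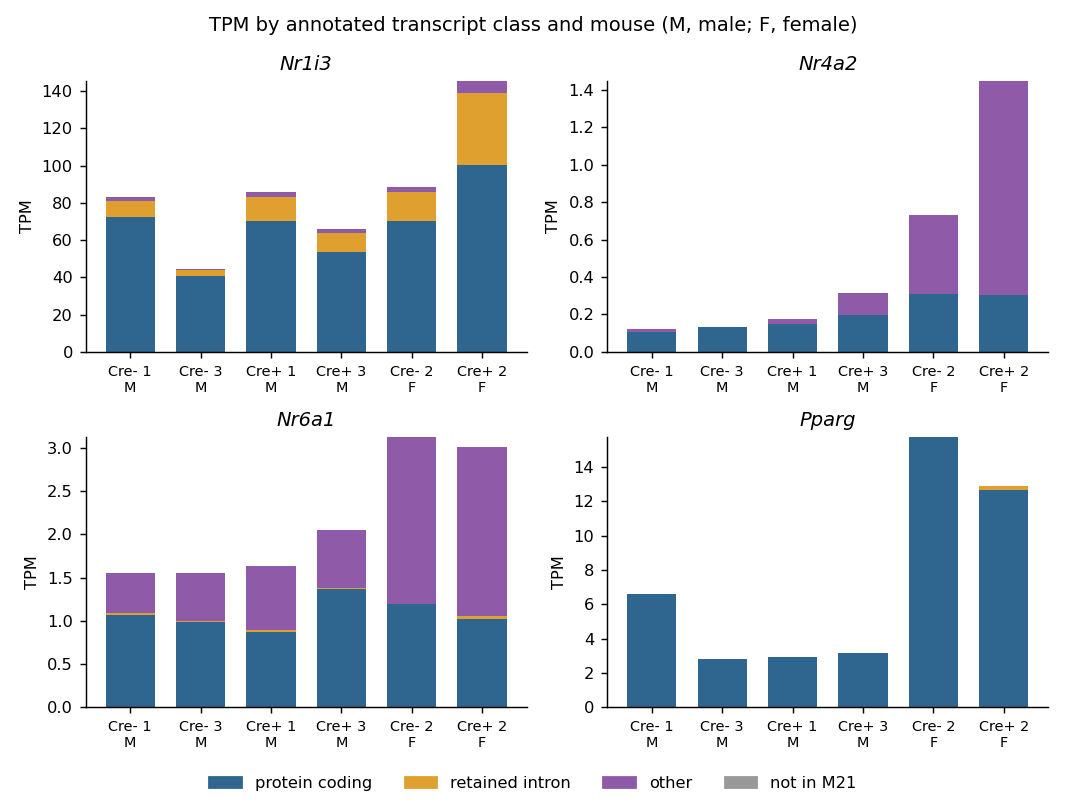
TPM of 4 members by mouse (males first, then the 2 females), stacked by the GENCODE M21 class of each transcript. The female excess lies in coding transcripts for *Pparg* and largely in non-coding ones for *Nr4a2* and *Nr6a1*, while the Alb-Cre+ female's *Nr1i3* bar includes 38.5 TPM of retained-intron transcripts.

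*Vdr* and *Nr4a3*, which were not tested, were 0.0901 and 0.127 TPM and 0.161 and 0.152 TPM in females, above the 0.00576 to 0.0170 TPM and 0.0135 to 0.108 TPM of the males. *Hnf4g* ranged from 0.0232 to 0.174 TPM.

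Whether the genotype difference itself varied with sex rested on 1 female per genotype, so its spread came from the males alone and the females were assumed to vary like them. No member or other gene had an adjusted p under 0.01 for this interaction. *Rara* (0.91 ± 0.26 log2) and *Nr3c1* (0.80 ± 0.26 log2) had an unadjusted p under 0.05 and an adjusted p = 0.775 by limma, 2 of 31 members against 6.08% of all genes. *Rara* was 5.01 TPM in the Alb-Cre- female and 7.57 TPM in the Alb-Cre+ female, and in males 6.11 and 6.64 TPM without Cre and 5.05 and 5.08 TPM with it. The interaction of all genes had a median of 0.23 log2 (0.00 after scaling), where *Rara* stood at 0.67 log2 and *Nr3c1* at 0.56 log2, and of the 31 members *Nr3c1* alone then had an unadjusted p under 0.05.

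The machinery around the receptors was examined through lists of other family members, coregulators and target genes. No gene of these lists had an adjusted p under 0.01 by genotype, with or without the replicate block, and counts are without the block unless it is named. Of 14 other nuclear receptors 7 were tested, of which 3 were above 0 and 4 below (median -0.08 log2), and none passed the adjusted threshold. *Ppara*, the fatty acid sensor of the fasted liver, was 85.3, 105 and 66.8 TPM against 63.0, 89.2 and 42.0 TPM, overlapping but lower in each Alb-Cre+ mouse than in the control of its number (-0.45 ± 0.29 log2, adjusted p = 0.767 with the replicate block). Of 20 coregulators 13 were above 0 (median 0.06 log2) and none had a p under 0.05. *Ppargc1a*, the coactivator induced by fasting, was 2.78, 12.6 and 7.03 TPM in controls and 2.98, 2.22 and 3.81 TPM in Alb-Cre+ mice (-1.08 ± 0.53 log2).

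Target gene lists had medians between -0.24 and 0.22 log2 by genotype, beside -0.0017 for all genes. The lists did not separate genes that a receptor raises from genes that it lowers. Medians and counts below 0 therefore describe the listed genes and give no direction of receptor activity. LXR targets had 10 of 12 genes below 0 (median -0.10) and none with a p under 0.05. Lowest among them was *Scd1*, the stearoyl-CoA desaturase, at 71.1, 51.6 and 248 TPM in controls and 16.0, 13.3 and 79.7 TPM in Alb-Cre+ mice, which overlapped through control mice 1 and 2 (-1.91 ± 0.81 log2, adjusted p = 0.058 with the block). FXR targets had 8 of 12 below 0 (median -0.15), and *Apoa1*, the main protein of high-density lipoprotein, was non-overlapping and lower (-0.91 ± 0.24 log2, unadjusted p under 0.05). CAR and PXR targets had 11 of 17 below 0 (median -0.10). *Cyp2b10*, the classical CAR target, was 29.0, 25.8 and 34.7 TPM in controls and 17.8, 19.2 and 8.63 TPM in Alb-Cre+ mice, lower without overlap (-1.04 ± 0.31 log2, unadjusted p under 0.05).

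Thyroid hormone receptor targets had 6 of 10 below 0 (median -0.08), with *Thrsp*, a lipogenic gene, at 15.1, 19.7 and 15.4 TPM in controls and 87.0, 31.1 and 86.2 TPM in Alb-Cre+ mice, the 1 gene with an unadjusted p under 0.05. PPAR targets had 11 of 17 above 0 (median 0.22). Among them *Cpt1a*, which admits fatty acids to mitochondria, was 273, 269.6 and 187 TPM in controls and 158, 179 and 130.3 TPM in Alb-Cre+ mice, lower without overlap (-0.63 ± 0.20 log2, unadjusted p under 0.05), and *Fgf21*, a fasting hormone, was 22.7, 70.4 and 9.19 TPM against 4.52, 16.8 and 2.57 TPM (-2.05 ± 0.88 log2, adjusted p = 0.058 with the block). Glucocorticoid receptor targets had 12 of 16 below 0 (median -0.24) and none with a p under 0.05. HNF4A targets had 9 of 15 below 0 (median -0.01), oestrogen-related receptor targets 7 of 10 (median -0.02), ROR and REV-ERB targets 5 of 9 (median -0.05), and retinoic acid receptor targets 2 of 7 (median 0.08), with no p under 0.05 in these 4 lists. Immediate-early genes, to which the NR4A receptors belong, had 10 of 16 below 0 (median -0.10). Liver zonation genes had 5 of 9 below 0 (median -0.10).

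With the replicate number as a block, where 4.69% of all genes had an unadjusted p under 0.05, more genes of most lists had one, some of them members of several lists. They were 2 of 12 LXR targets, 3 of 12 FXR targets and 3 of 17 CAR and PXR targets, all lower in Alb-Cre+ mice. As above, such directions are those of the genes and not of receptor activity. Thyroid hormone receptor targets had 2 higher and 1 lower, PPAR targets 3 higher and 3 lower, and glucocorticoid receptor targets and HNF4A targets 1 higher and 2 lower each. The count was 1 higher of 10 oestrogen-related receptor targets, 2 lower of 9 ROR and REV-ERB targets, and 1 higher and 3 lower of 16 immediate-early genes. Other nuclear receptors had 1 higher and 1 lower, the latter *Ppara*, and coregulators, retinoic acid and vitamin D receptor targets and zonation genes had 0. Among the genes reached only with the block, *Angptl4*, an inhibitor of lipoprotein lipase in both the PPAR and glucocorticoid receptor lists, was 99.2, 141 and 81.1 TPM in controls and 137, 171 and 139 TPM in Alb-Cre+ mice (0.50 ± 0.22 log2, adjusted p = 0.738 with the block by limma). *Cpt1b*, the muscle counterpart of *Cpt1a*, was 2.68, 5.57 and 1.46 TPM against 4.26, 12.2 and 4.98 TPM (1.16 ± 0.56 log2, adjusted p = 0.555 with the block by limma). Both overlapped between genotypes, and each Alb-Cre+ value exceeded the control of its number, as in 11.5% of all genes. Other genes reached only with the block were lower, among them *Ppara*, *Scd1* and *Fgf21*, given above.

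By sex, 1 gene had an adjusted p under 0.01 by limma in each of 6 of the target and immediate-early gene lists. Over all genes the share was 0.514%. *Slco1a1*, an organic anion transporter among the FXR targets, *Serpina1e*, a protease inhibitor among the HNF4A targets, and *Cyp7b1*, the oxysterol hydroxylase among the ROR and REV-ERB targets, were lower in females. *Serpina1e* was 151 and 73.8 TPM in females and 4377 to 12430 TPM in males (adjusted p = 0.00076), and *Cyp7b1* was 7.62 and 7.11 TPM in females and 34.2 to 58.5 TPM in males (adjusted p = 0.00483). Higher in females were *Cyp2b13*, a cytochrome P450 among the CAR and PXR targets, *Ier3*, an immediate-early gene, and *S100g*, a calcium-binding protein and the only tested vitamin D receptor target. *Cyp2b13* was 81.9 and 111 TPM in females and 0 to 0.0990 TPM in males (adjusted p = 0.000174; as for *Serpina1e*, near-identical gene copies make the assignment of reads uncertain), and *Ier3* was 7.04 and 10.2 TPM in females and 1.01 to 1.32 TPM in males (adjusted p = 0.0043). *S100g* was 3.37 and 5.40 TPM in females and 0.157 to 0.437 TPM in males (adjusted p = 0.00875, and 0.0106 after scaling, where the other 5 stayed under 0.01). *Slco1a1* and *Cyp7b1* also belong to the male-biased list, where *Cyp4a12a*, *Mup20*, *Cyp2d9* and *Hsd3b5* passed as well, and *Cyp2b13* to the female-biased list, with *Sult2a1*, *Cyp3a41a* and *Hao2*.

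**Figure D5:**
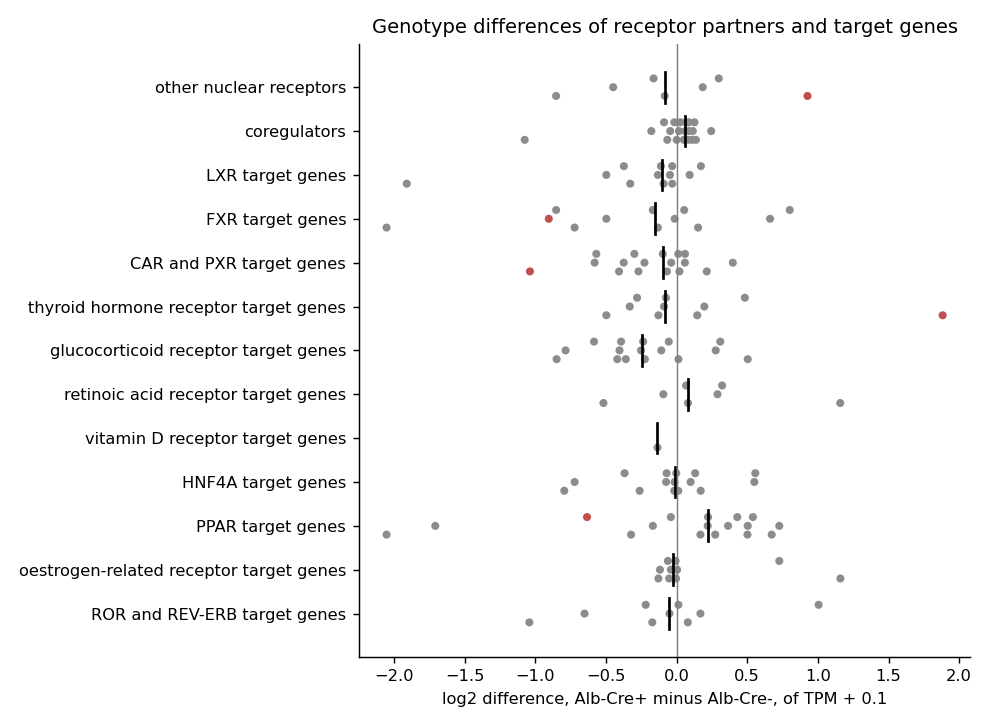
Genotype difference (Alb-Cre+ minus Alb-Cre-, log2 of TPM + 0.1) of each tested gene in the lists of other nuclear receptors, coregulators and receptor target genes; black bars are list medians and red points have an unadjusted p under 0.05 (limma). Medians lie between -0.24 and 0.22, and 5 red points stand out, among them *Thrsp* to the right and *Cyp2b10* to the left.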

How the data were processed

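RNA was isolated from liver with an RNeasy Plus Mini Kit in 3 *Surf4* fl/fl Alb-Cre+ and 3 *Surf4* fl/fl Alb-Cre- mice. The authors deposited TPM per transcript, in a table labelled as Salmon output, whereas the methods describe STAR alignment to GRCm38 and RSEM; the submitters' processing notes name all 3, and versions are not given in the sources used here. A deposited table of the authors' DESeq2 comparison, which holds fold changes, p-values and adjusted p-values, was not used. TPM of 116748 transcripts were summed by gene symbol, leaving out 163 transcripts without one (0.0515% to 0.0887% of TPM). How reads were shared between overlapping transcripts, and strand, can shift these sums.

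The 14189 genes whose mean reached 0.1 TPM entered the comparison, as log2(TPM + 0.1), in limma 3.58.1 (R 4.3.3) with a variance trend, Benjamini-Hochberg adjustment over all genes and a threshold of 0.01; fold changes on this scale understate those of low genes. Models held genotype alone, genotype and sex, or both with their interaction. The p-values rest on the spread between the mice sampled, which limma moderates over all genes. With the replicate number as a block they rest on the spread of the differences between same-numbered mice. Deviations from group means correlated between same-numbered mice of both genotypes (r = 0.367, 0.588 and 0.37 for numbers 1 to 3). Between males of different numbers r was 0.171 and 0.0914, and between a female and a male -0.444 to -0.351. Same-numbered mice also share their sex, and its part in these correlations was not tested. Counts are also given from a fit with the number as a block. The methods call the controls littermates without saying that same-numbered mice were. Surf4 was tested by exact permutation (scipy 1.17.1), and scripts were tested on simulated data. Alternatives were another pseudocount, filters, median-of-ratios scaling, no trend, the most abundant transcript, sex as a covariate by genotype, an adjusted p of 0.05, and each mouse left out. Sums over coding transcripts (GENCODE M21) were added after the data were seen.

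Members and lists were chosen with earlier results of these data known. Per-mouse values are given for the 12 members with the highest mean and those with an unadjusted p under 0.05 by genotype, block or sex or without genotype overlap; from each other list, at most the 3 genes with the smallest p are named, plus those past the threshold. *Rara*, *Esrrg*, *Tomm40l* and *Top2b* were given by mouse or range after their values were seen. The values of 1 gene with an unadjusted p under 0.05, in the list of other nuclear receptors, are not reported here.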

Additional observations from a re-analysis of the deposited data

Results flagged for a closer look

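Among the 4 males, 2 mice of each genotype, 2 of 31 members had 1 mouse set apart by a gap larger than Dixon's 95% critical value of 0.829 of the range, a limit that chance passes in about 1 of 20 groups. *Pparg* was 6.62 TPM in Alb-Cre- mouse 1 and 2.79 to 3.15 TPM in the other 3 males, a gap of 0.906 of the range. *Nr6a1* was 2.05 TPM in Alb-Cre+ mouse 3 and 1.55 to 1.63 TPM in the other 3, a gap of 0.834 of the range.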

How the results depend on the processing

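TPM hold no depth, so precision is limited by 3 mice per genotype and 2 females. By genotype, no gene passed an adjusted p of 0.01 under the alternatives that kept all mice, nor 0.05 in the fit as reported, and 0 to 1 did when 1 mouse was left out (the 1 without Alb-Cre+ mouse 1). The number of the 31 members with an unadjusted p under 0.05 was 0, but 1 with the most abundant transcript, 2 with the replicate block, with or without median of ratios, 1 with the replicate block over coding transcripts, and 0 to 1 with a mouse left out. Members above 0 numbered 19, and 10 (without the Alb-Cre+ female) to 22 with a mouse left out.

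By sex, 73 genes had an adjusted p under 0.01, against 28 without a filter, 31 without the trend, 138 over coding transcripts, 1019 at an adjusted p of 0.05, and 3 to 51 with a mouse left out; it was 3 without the one or the other female (the lone female is then assumed to vary like the males), 43 without Alb-Cre+ mouse 1 and 32 without Alb-Cre+ mouse 3. Of the members, 8 had an unadjusted p under 0.05, against 5 without the trend, 5 without Alb-Cre+ mouse 3, and 4 (without the Alb-Cre+ female) to 11 with a mouse left out. Median of ratios moved the members above 0 from 25 to 16 and their median from 0.28 to 0.0036 log2, and over coding transcripts to 15 and -0.0636. The *Nr6a1* difference reversed to -0.077 log2 for the most abundant transcript and -0.18 over coding transcripts with median of ratios, where the non-coding transcripts are left out by construction.

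For the interaction, no gene passed 0.01, but 323 did without a filter, 287 of them with a mean under 0.1 TPM. Members with an unadjusted p under 0.05 numbered 2, 1 with median of ratios, without the trend or over coding transcripts with median of ratios, and 0 (without Alb-Cre+ mouse 3) to 3 with a male left out, being 1 without Alb-Cre- mouse 1 or 3; the females could not be left out. Median of ratios moved the members' median from 0.27 to 0.0296 log2, and to 0.011 over coding transcripts. The replicate block raised the number of genes with an unadjusted p under 0.05 in most lists, as given above, and moved no gene past the adjusted threshold; the cause of the other changes was not tested. The *Surf4* difference stayed between -0.72 and -0.52 log2.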
